A study of Mus musculus with 13 samples.

Results

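The proteasome genes described here are the 36 genes, of 23366 in the table, whose mouse symbol is Psma, Psmb, Psmc or Psmd followed by a number, with the immunoproteasome genes Psmb8, Psmb9 and Psmb10 and all pseudogenes left out. They fall into 16 genes of the 20S core (Psma and Psmb), 6 of the ATPase ring (Psmc) and 14 Psmd genes, most of which encode the lid and the rest of the base of the regulatory particle. RNA was sequenced from the whole pancreas of 13 mice, all females, with 1 library for each. All mice, the untreated ones included, carried the i4F-B cassette, a doxycycline-inducible transgene for Oct4, Sox2, Klf4 and Myc (OSKM) that is inserted in the Pparg gene. Acinar cells express the cassette broadly when doxycycline is given, while most endocrine cells do not. The 4 young mice were 13 weeks old and the 5 old mice 55 weeks old, both untreated. The 4 old-OSKM mice started at 55 weeks, drank doxycycline in water with sucrose for 7 days and recovered for 2 weeks. The sample labels give their age as 58 weeks. No untreated group of the older age and no doxycycline group without the cassette was analysed here. Age, doxycycline, the sucrose given with it and the factors thus cannot be told apart in the old-OSKM group.

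The proteasome degrades proteins that carry ubiquitin chains. Its 20S core is a barrel of 4 stacked rings, with alpha subunits (Psma) forming the gated outer rings and beta subunits (Psmb) the inner rings, where Psmb5, Psmb6 and Psmb7 hold the proteolytic sites. The regulatory particle caps the barrel: its lid and base bind and deubiquitinate the substrate, and the ring of 6 ATPases (Psmc) unfolds it and feeds it into the core. In the exocrine pancreas, where acinar cells make large amounts of secreted protein, misfolded products of the endoplasmic reticulum are among its substrates. The study asked whether a single cycle of OSKM moves the aged pancreas towards the young state. Protein homeostasis was one of the processes it looked at. It reported this process as improved in old-OSKM mice, from analyses of gene sets that included a proteasome set. Gene sets were not tested here.

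Transcription of proteasome genes is known to be raised as a set by Nfe2l1, a factor that acts through antioxidant response elements with the core TGACNNNGC. A RefSeq promoter (GRCm38.p6, the assembly of mm10) was at hand for 29 of the 36 genes. In the 250 bases before the start, TGACNNNGC on either strand was found in 5 of the 29 genes (17.2%), namely Psmb5, Psmb6, Psmc6, Psmd9 and Psmd12, compared with 11.5% of all 27025 genes with a promoter and 14.4% of the 6729 of these with a mean log2 RPKM over 0. Proteasome genes are known to be regulated together through this element, but whether these matches are bound or active was not tested. The sequences around the match are shown for 4 of the 5 genes, in which the stretch lies outside any annotated gene. They are written 5′ to 3′ on the strand of the gene, with the match in capitals, and the last 2 hold the reverse complement GCNNNGTCA.
Psmb5: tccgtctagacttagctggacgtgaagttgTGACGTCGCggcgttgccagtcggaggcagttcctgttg
Psmd9: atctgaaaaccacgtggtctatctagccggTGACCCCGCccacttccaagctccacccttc
Psmc6: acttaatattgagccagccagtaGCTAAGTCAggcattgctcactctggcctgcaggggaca
Psmd12: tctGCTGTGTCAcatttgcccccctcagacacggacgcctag
The Psmb5 stretch lies at chr14:54618004-54618072 on the minus strand, and its match begins 47 bases before the start. The other stretches lie on the plus strand, at chr5:123228129-123228189 for Psmd9, chr14:45329574-45329635 for Psmc6 and chr11:107479278-107479319 for Psmd12, with matches that begin 31, 227 and 247 bases before the start. The same windows held CCAAT on either strand in 12 of the 29 genes (41.4%, compared with 37.5% of all genes with a promoter). CCGGAAG, a core of ETS factor sites, was found on either strand in 9 of the 29 (31.0%, compared with 7.83% of all genes and 17.2% of those with a mean log2 RPKM over 0).

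The values are log2 RPKM, a read density scaled by transcript length and by the reads mapped in the library, and 1 unit on this scale is a doubling. The pancreas was dominated by acinar transcripts: the 12 acinar markers summed to a log2 level of 13.69 to 13.79 in all mice, with Ctrb1 highest at a mean log2 RPKM of 11.11. The proteasome genes were far below these but formed a narrow band, 32 of the 36 having a mean between 1 and 3 log2 RPKM. Highest was Psmd6, a lid subunit, at a mean log2 RPKM of 2.90 ± 0.12 (SD, n = 13 mice), higher than 97.2% of all genes. Psmb1, a beta subunit without a proteolytic site, followed at 2.65 ± 0.11 (SD, n = 13). Psmc3, the highest ATPase, was at 2.46 ± 0.12 (SD, n = 13), and both steps in this order held in 13 of 13 mice.

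Below these 3 genes the order was loose. Between Psmc3 and Psmd12, the neighbours in order of mean log2 level stood in that order in 4 to 10 of the 13 mice, so that these 24 genes form a run without clear ranks. The 6 ATPases, which form 1 ring, spanned from 2.46 in Psmc3 to 1.82 ± 0.22 (SD, n = 13) in Psmc2, a factor of 1.55 in RPKM. The alpha subunits had a median level of 2.13 log2 RPKM, the beta subunits 2.25, the ATPases 1.89 and the 8 lid subunits 1.85. The lowest lid subunit was Psmd14, the deubiquitinase that removes the ubiquitin chain, at 1.10 ± 0.21 (SD, n = 13). The 3 Psmd genes whose products help to assemble the base and leave the finished particle were low, with means of 1.11 in Psmd5, 0.43 in Psmd10 and -0.19 in Psmd9, the lowest Psmd gene.

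The 2 tissue-restricted subunits were the lowest of all. Psma8, the alpha subunit of germ cells, had a mean log2 RPKM of -2.73 ± 0.62 (SD, n = 13), with values from -3.64 to -1.69 that were scattered over all 3 groups. Psmb11, the beta subunit of thymic cortical epithelium, was at -4.55 ± 0.04 (SD, n = 13), a level below all but 1.11% of genes. Values as low and as constant as those of Psmb11 measure no difference between mice.

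**Figure D1:**
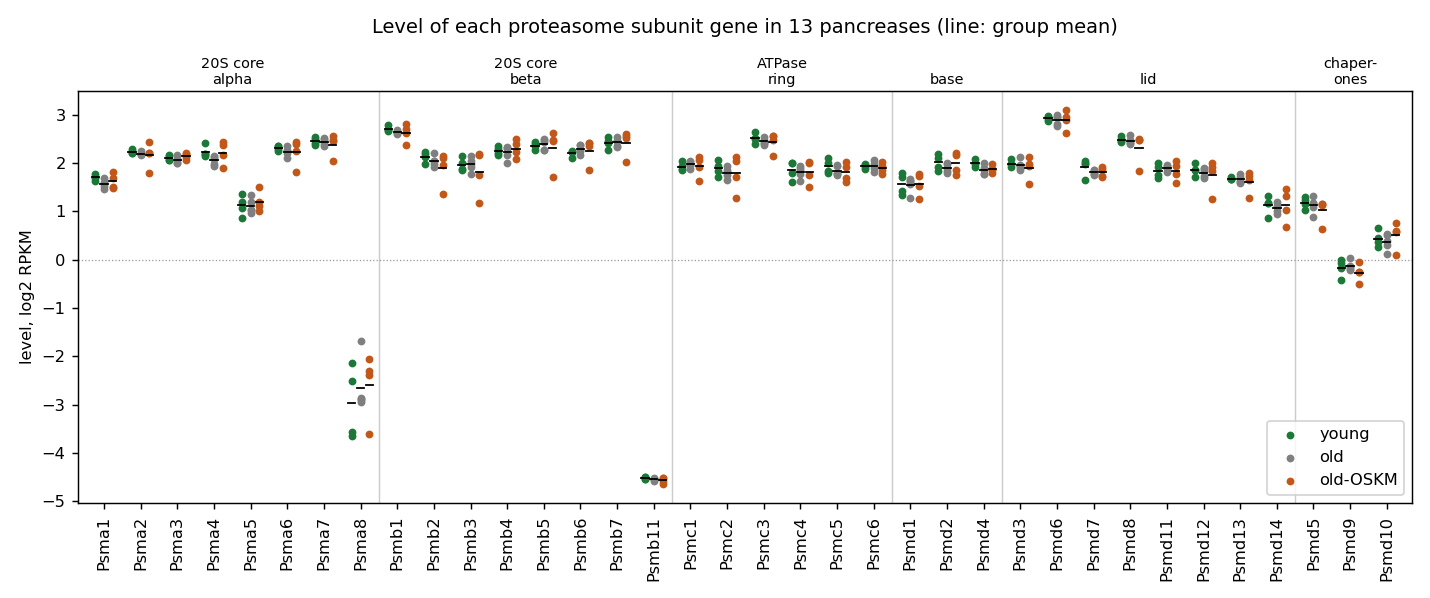
Level of the 36 proteasome subunit genes in log2 RPKM (vertical axis), ordered by role (horizontal axis), with 1 point per mouse and a line for the mean of the 4 young, 5 old and 4 old-OSKM mice. Means of 32 genes lie between 1 and 3, Psma8 and Psmb11 lie far below, and in most genes the lowest point is an old-OSKM mouse.

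With age, the proteasome genes differed little. In old minus young mice, 27 of the 36 genes had a lower mean and 9 a higher one, and the median difference was -0.035 on the log2 scale, a ratio of 0.976. Over all genes the median difference was 0.0012 and 45.5% had a lower mean in old mice. No proteasome gene passed an adjusted p under 0.05 in limma, with Benjamini-Hochberg adjustment over all genes (0.0813% of all genes passed), and none passed the rule that the study used (fold change above 1.5 with raw p below 0.01) (0.886% of all genes). At a raw p under 0.05, 1 gene was lower, compared with 2.52% of all genes and 2.38% of the genes with a mean over 0. None was higher, compared with 3.0% and 3.98%. The old and young values overlapped in all 36 genes, while they did not overlap in 2.71% of all genes. In 35 of the 36 genes the whole 95% interval of the difference lay within 1.5-fold in both directions, the exception being Psma8.

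The gene below a raw p of 0.05 was Psmd4, the ubiquitin receptor of the base. Its log2 RPKM was 1.99, 1.91, 1.97 and 2.08 in the young mice, 1.89, 1.86, 1.78, 2.00 and 1.78 in the old mice and 1.84, 1.98, 1.79 and 1.87 in the old-OSKM mice. The 3 groups overlap, and old mouse 4 was above 3 of the 4 young mice. Old minus young mice differed by -0.13 ± 0.059 (SE) on the log2 scale, with an adjusted p of 0.895 in limma, and old-OSKM minus old mice by 0.011 ± 0.059 (SE, adjusted p = 0.94 in limma). With young mouse 1, 3 or 4, old mouse 1, 2, 3 or 5 or old-OSKM mouse 1 left out, Psmd4 was no longer below a raw p of 0.05. With old-OSKM mouse 1 left out, the alpha subunit Psma1 was below it instead.

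The parts of the complex differed from each other by less than their spread. The median difference in old minus young mice was -0.027 on the log2 scale in the 20S core, -0.046 in the ATPase ring and -0.045 in the Psmd genes. Within the core it was -0.043 in the alpha subunits, of which 7 of 8 had a lower mean, and -0.0074 in the beta subunits, of which 4 of 8 did. For each mouse, the median deviation of the genes from their own means over the 13 mice was also taken. In the alpha subunits this deviation ran from -0.0027 to 0.071 in the young mice and from -0.062 to -0.0096 in the old mice, which do not overlap. This was so in 1 of 6 finer roles (alpha, beta, ATPases, other base subunits, lid and assembly chaperones) and is a description without a test. In the whole set it ran from -0.030 to 0.076 in the young and from -0.073 to 0.064 in the old mice, which overlap broadly.

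In the old-OSKM mice the proteasome genes were more variable than in either untreated group, and 1 mouse was low in nearly all of them. The median deviation of the 36 genes was 0.13 in old-OSKM mouse 1, 0.14 in mouse 2, -0.012 in mouse 3 and -0.32 in mouse 4. No young or old mouse was outside -0.073 to 0.076. Mouse 4 was below the gene's own mean in 35 of the 36 genes, Psma8 being the exception. Of all genes with a mean log2 RPKM over 0, 58.0% were below their own mean in this mouse. Mouse 4 was the lowest of the 13 mice in 29 of the 36 genes (80.6%), compared with 44.7% of all genes. Among the genes with a mean log2 RPKM over 0, it was the lowest in 27 of 33 proteasome genes (81.8%), compared with 36.2% of all such genes. At the other end, old-OSKM mouse 1 or 2 was the highest of the 13 mice in 23 of the 36 genes (63.9%), compared with 12.9% of all genes. All 23 have a mean over 0, and are 69.7% of the 33, compared with 12.8% of all such genes.

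**Figure D2:**
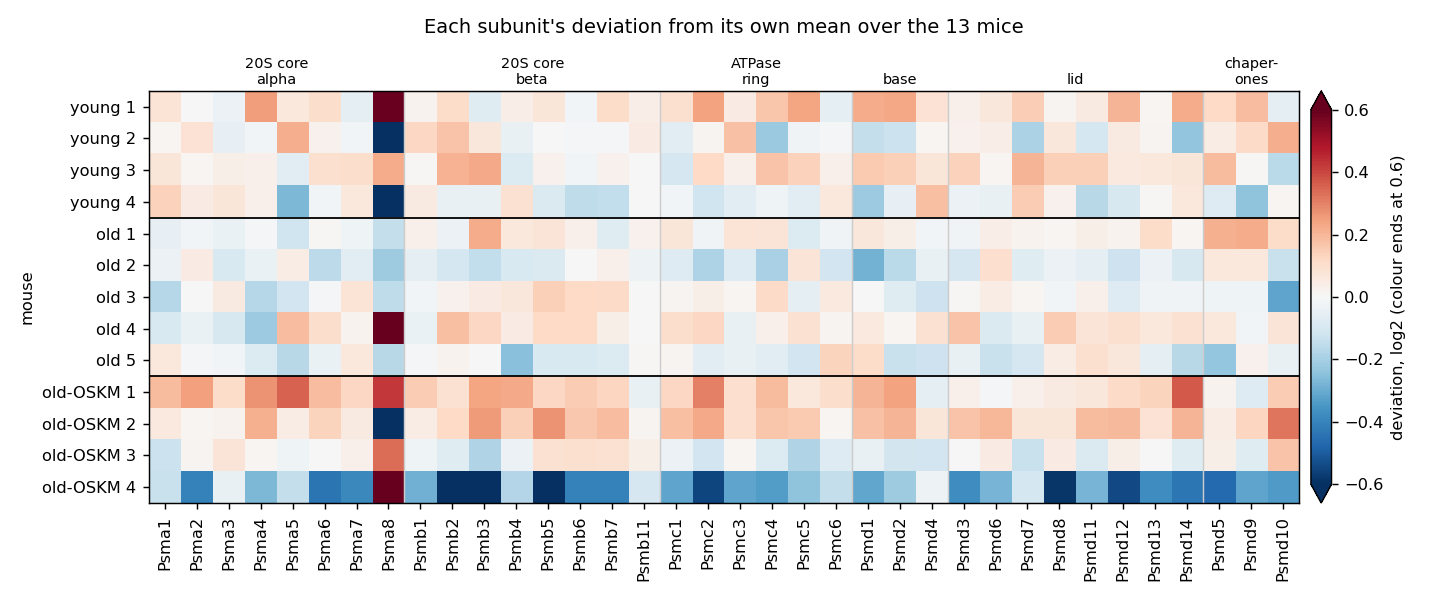
Deviation of each of the 36 genes (horizontal axis, by role) from its own mean over the 13 mice, in log2 units (colour, ending at 0.6), with 1 row per mouse. The row of old-OSKM mouse 4 is below the mean in 35 genes, the rows of old-OSKM mice 1 and 2 are above it in 32 and 35 genes, and no young or old mouse is on 1 side in more than 30 genes.

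Mouse 4 was low in every part of the complex. Its median deviation was -0.34 in the 20S core, -0.31 in the ATPase ring and -0.33 in the Psmd genes, and all 6 ATPases were at their lowest in this mouse. Within the core the median deviation was -0.21 in the alpha subunits, of which 4 of 8 were at their lowest, and -0.41 in the beta subunits, of which 7 of 8 were. Within the Psmd genes it was -0.21 in the 3 other base subunits, -0.37 in the lid and -0.34 in the assembly chaperones. Over all 8410 genes with a mean log2 RPKM over 0, the median deviation of the mouse was -0.073. The median within-group SD of the 36 genes was 0.10 in young, 0.093 in old and 0.23 in old-OSKM mice. Without mouse 4 it was 0.11 in the old-OSKM mice, and the number of genes whose SD was largest in the old-OSKM group fell from 32 to 13. The same count was not taken over all genes, so that whether it is particular to the proteasome genes is unknown.

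**Figure D3:**
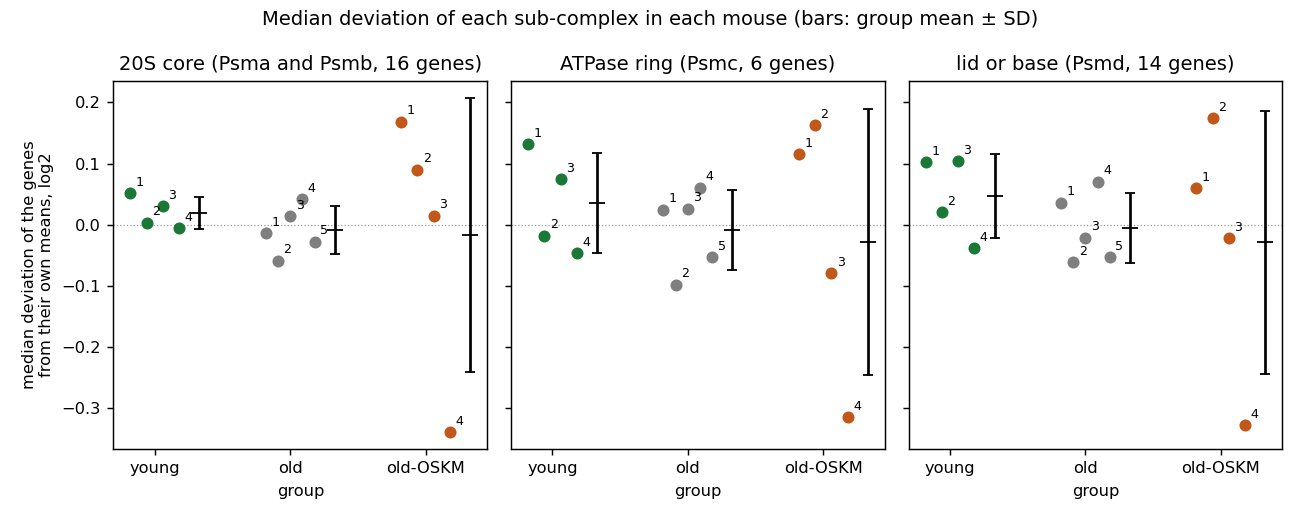
Median deviation of the genes of each sub-complex from their own means, in log2 units (vertical axis), for each mouse (numbered points) by group, with the group mean and SD as bars. In all 3 panels old-OSKM mouse 4 lies near -0.3, and the other 12 mice lie between -0.098 and 0.17.

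The 3 proteolytic subunits of the core show this pattern. Psmb5, the chymotrypsin-like subunit (chr14:54614120-54617995), had a log2 RPKM of 2.43, 2.35, 2.38 and 2.27 in the young mice, 2.43, 2.27, 2.50, 2.47 and 2.27 in the old mice and 2.48, 2.63, 2.45 and 1.71 in the old-OSKM mice. Its 2 extremes over all 13 mice, 2.63 and 1.71, are thus both old-OSKM mice, and the young and old values overlap fully. Old-OSKM minus old mice differed by -0.074 ± 0.15 (SE) on the log2 scale (adjusted p = 0.817 in limma). Psmb6, the caspase-like subunit, had a log2 RPKM of 2.23, 2.25, 2.23 and 2.10 in the young mice, 2.28, 2.26, 2.37, 2.37 and 2.16 in the old mice and 2.41, 2.41, 2.35 and 1.85 in the old-OSKM mice. Old-OSKM mice 1 to 3 were above every young mouse in this gene, and mouse 4 was below all others. Psmb7, the trypsin-like subunit, had a log2 RPKM of 2.53, 2.41, 2.45 and 2.28 in the young mice, 2.35, 2.45, 2.53, 2.45 and 2.34 in the old mice and 2.55, 2.61, 2.51 and 2.01 in the old-OSKM mice. On the log2 scale, old-OSKM minus old mice differed by -0.034 ± 0.11 (SE) in Psmb6 and -0.0059 ± 0.11 (SE) in Psmb7, with adjusted p-values of 0.884 and 0.983 in limma.

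Among the other core genes, Psmb1, the highest of the core, had a log2 RPKM of 2.67, 2.78, 2.66 and 2.71 in the young mice, 2.68, 2.60, 2.63, 2.61 and 2.64 in the old mice and 2.80, 2.70, 2.63 and 2.36 in the old-OSKM mice. Old-OSKM mouse 4 was again below all others, and mouse 1 was the highest. Psma8 had a log2 RPKM of -2.14, -3.56, -2.51 and -3.64 in the young mice, -2.87, -2.94, -2.88, -1.69 and -2.90 in the old mice and -2.30, -3.60, -2.40 and -2.06 in the old-OSKM mice. Mouse 4 was not low in this gene, whose values scatter by more than 1 log2 unit within each group. Psmb11 lay between -4.65 and -4.50 in all mice.

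In the regulatory particle, Psmc3, an ATPase, had a log2 RPKM of 2.51, 2.63, 2.49 and 2.39 in the young mice, 2.54, 2.38, 2.47, 2.41 and 2.41 in the old mice and 2.56, 2.56, 2.47 and 2.14 in the old-OSKM mice. Psmc2, the lowest ATPase, had a log2 RPKM of 2.06, 1.84, 1.94 and 1.71 in the young mice, 1.80, 1.64, 1.86, 1.95 and 1.75 in the old mice and 2.12, 2.05, 1.71 and 1.27 in the old-OSKM mice. In both genes the untreated groups overlapped and mouse 4 was below every other mouse, by a wider margin in Psmc2. Psmd6, of the lid, had a log2 RPKM of 2.97, 2.94, 2.91 and 2.86 in the young mice, 2.94, 3.0, 2.94, 2.81 and 2.77 in the old mice and 2.89, 3.10, 2.95 and 2.62 in the old-OSKM mice. Psmd14 had a log2 RPKM of 1.32, 0.86, 1.17 and 1.16 in the young mice, 1.12, 1.00, 1.08, 1.19 and 0.94 in the old mice and 1.47, 1.30, 1.03 and 0.67 in the old-OSKM mice. The old-OSKM group held both the highest and the lowest value of each of these 2 lid genes. Psmd9, an assembly chaperone, had a log2 RPKM of -0.0020, -0.073, -0.18 and -0.43 in the young mice, 0.035, -0.12, -0.21, -0.20 and -0.16 in the old mice and -0.26, -0.056, -0.26 and -0.50 in the old-OSKM mice. Mouse 4 was again the lowest, close to young mouse 4. In these 5 genes the log2 difference of old-OSKM minus old mice lay between -0.14 and 0.052, with adjusted p-values from 0.608 to 0.989 in limma.

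Over all 4 old-OSKM mice the proteasome genes did not stand apart from those of the old mice. The median of old-OSKM minus old mice was -0.012 on the log2 scale, with 12 genes higher and 24 lower, while the median over all genes was -0.039 and 63.1% were lower. None of the 36 genes passed an adjusted p under 0.05 in limma (0.00428% of all genes) or the study's rule (0.753% of all genes). None passed a raw p under 0.05, compared with 3.98% of all genes higher and 4.08% lower, and with 3.51% and 4.67% of those with a mean over 0. The medians were -0.011 in the 20S core, -0.022 in the ATPase ring and -0.024 in the Psmd genes. No gene had values that did not overlap (1.73% of all genes), and the 95% interval lay within 1.5-fold in 35 of the 36 genes.

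Left out of the fit, mouse 4 turned the sign. Without it, 34 of the 36 genes had a higher mean in old-OSKM than in old mice, the exceptions being Psma8 and Psmd9, and the median difference was 0.087 on the log2 scale, a ratio of 1.06, compared with -0.018 over all genes. Without mouse 1 instead, 30 of the 36 genes had a lower mean and the median difference was -0.071, compared with -0.034 over all genes. Without mouse 4, the medians were 0.10 in the 20S core, 0.075 in the ATPase ring and 0.063 in the Psmd genes. In the same fit, 3 genes were higher at a raw p under 0.05 (8.33%, compared with 2.88% of all genes). No proteasome gene passed an adjusted p under 0.05 in limma there, the smallest being 0.601. Mouse 4 was the lowest of its group, and 3 old-OSKM mice remain without it.

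**Figure D4:**
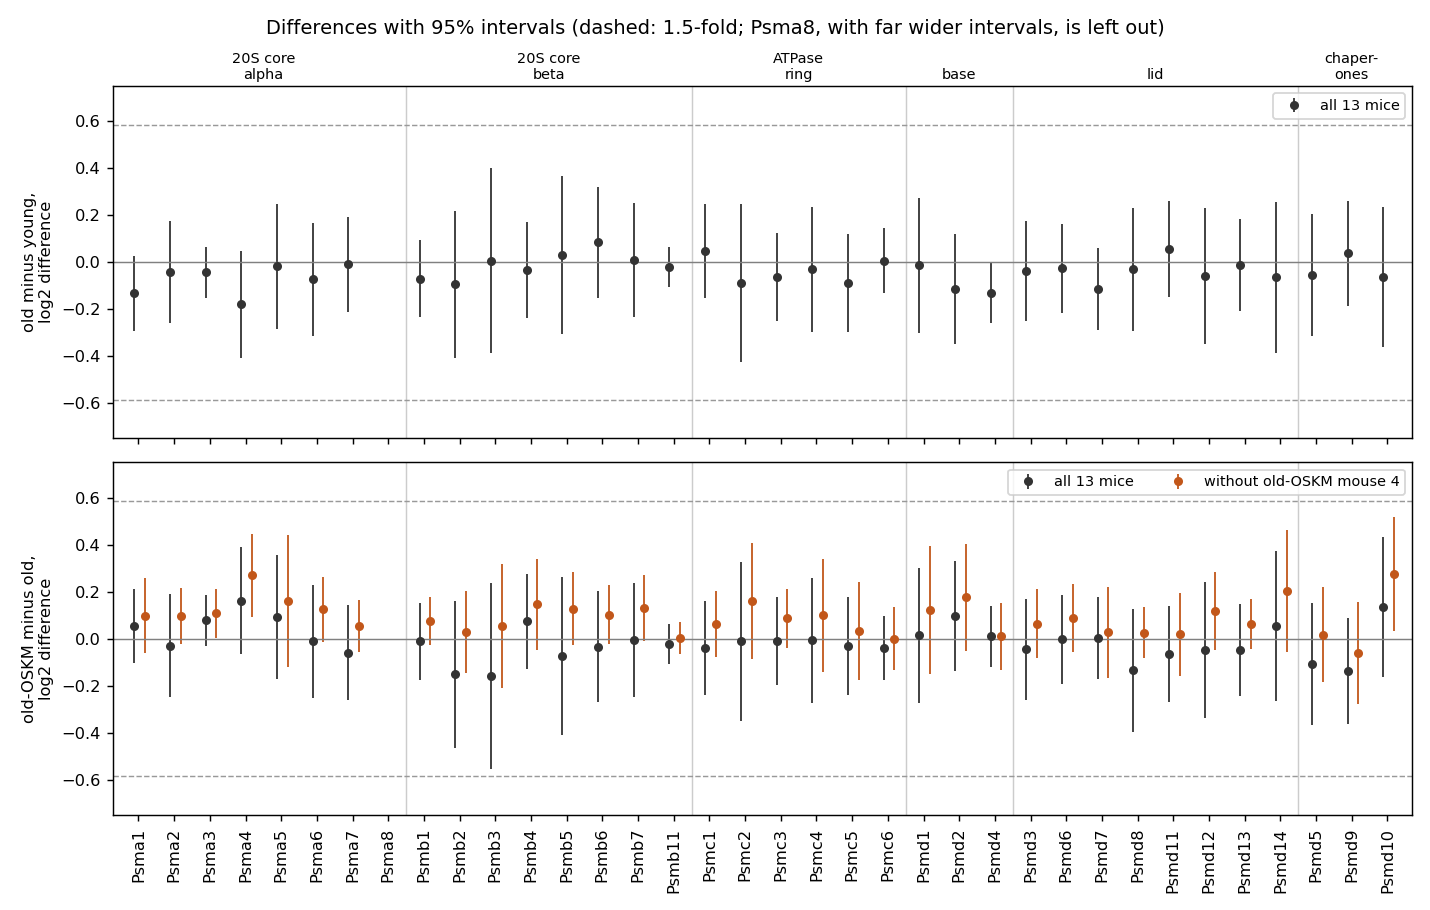
Log2 difference of 35 genes (Psma8, with far wider intervals, is not drawn) with its 95% interval from limma (vertical axes), for old minus young mice (upper panel) and old-OSKM minus old mice (lower panel), with all 13 mice in black and without old-OSKM mouse 4 in orange. Dashed lines mark 1.5-fold, within which all intervals drawn lie, and in the lower panel the orange points lie above 0 in all genes drawn but Psmd9 while the black points lie on both sides.

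The 3 genes below that raw p, singled out after their values were seen, were the alpha subunits Psma3 and Psma4 and the assembly chaperone Psmd10. Psma4 had a log2 RPKM of 2.40, 2.14, 2.19 and 2.19 in the young mice, 2.14, 2.12, 1.98, 1.94 and 2.07 in the old mice and 2.42, 2.37, 2.17 and 1.89 in the old-OSKM mice. Old-OSKM mice 1 to 3 were above all 5 old mice, and mouse 4 was below them. The log2 difference from the old mice was 0.16 ± 0.10 (SE) with all mice and 0.27 ± 0.079 (SE) without mouse 4 (adjusted p = 0.608 and 0.601 in limma). Psmd10 had a log2 RPKM of 0.54, 0.29, 0.11, 0.50 and 0.38 in the old mice and 0.58, 0.75, 0.60 and 0.086 in the old-OSKM mice, with a difference of 0.14 ± 0.14 (SE) with all mice and 0.27 ± 0.11 (SE) without mouse 4. Psma3 differed by 0.079 ± 0.049 (SE) and by 0.11 ± 0.046 (SE) without it. Without mouse 4, Psma4 and Psmd10 were higher in every remaining old-OSKM mouse than in any old mouse, 2 of the 36 genes (5.56%, compared with 1.90% of all genes). Each of the 3 genes overlaps another annotated gene (AY074887, Atg4a and 3110056K07Rik), and the library kit is not stated to keep strand, so reads of the partners may be counted with them.

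Compared with the young mice, the old-OSKM mice had a median difference of -0.053 on the log2 scale in the 36 genes, with 9 higher and 27 lower. The median over all genes was -0.038 and 61.3% were lower. This comparison shares the young mice with the first and the old-OSKM mice with the second. None of the 36 genes passed an adjusted p under 0.05 in limma (0.0428% of all genes) or the study's rule (0.625% of all genes). None was below a raw p of 0.05, compared with 2.91% of all genes higher and 2.16% lower, and with 2.09% and 2.78% of those with a mean over 0. The values overlapped in all 36 genes (they did not in 1.90% of all genes). Without mouse 4 the median was 0.060 with 27 genes higher, and 1 gene, Psmb6, was higher at a raw p under 0.05 (2.78%, compared with 3.0% of all genes), with a log2 difference of 0.19 ± 0.059 (SE, adjusted p = 0.627 in limma). It was 0.051 ± 0.11 (SE) with all mice.

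Old-OSKM mice 1 and 4 also stood apart in markers of other cells, and the part of this in the proteasome values was not tested. In bulk tissue, fewer cells of a type and less RNA per cell cannot be told apart. In mouse 4, the 8 islet markers summed to a log2 level of 8.99, with 6 of the 8 at their highest of 13 mice, compared with 7.26 to 8.30 in young and 7.43 to 8.62 in old mice. The 8 fibroblast and stellate markers summed to 6.12, with 4 of 8 at their highest (4.74 to 5.69 in young and 4.34 to 4.69 in old mice). The 6 endothelial markers summed to 4.31, with 5 of 6 at their highest (3.37 to 4.02 in young and 3.23 to 3.44 in old mice), and the 7 duct markers to 5.44, with 4 of 7 (4.52 to 5.14 and 4.49 to 4.70). The 12 acinar markers were at their lowest sum in mouse 4, 13.69 compared with 13.73 or more in the others. Only 3 of the 12 were at their lowest there, and their median deviation was -0.031. This sum can differ little between mice, since quantile normalization gives all mice nearly the same sorted values. For none of these lists was the share of all genes at their highest in mouse 4 taken.

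Old-OSKM mouse 1, one of the 2 mice with high proteasome genes, was low in islet markers and high in immune and dividing cell markers. All 8 islet markers were at their lowest of 13 mice there, with a summed log2 level of 6.32 (7.26 to 8.30 in young and 7.43 to 8.62 in old mice). All 6 T cell markers were at their highest there, with a summed log2 level of 2.61 (-0.53 to 0.0095 in young and -0.11 to 0.83 in old mice). So were all 6 B and plasma cell markers, at 3.75 (-0.23 to 1.38 and 1.44 to 3.03), and all 6 proliferation markers, at 1.99 (-0.23 to 0.72 and -0.71 to 0.64). The share of all genes at their highest or lowest in mouse 1 was not taken. Of all genes with a mean log2 RPKM over 0, 59.6% were below their own mean in mouse 1. The 7 macrophage markers summed to 5.35 in mouse 1 and 5.10 in mouse 4 (3.68 to 4.48 in young and 3.34 to 4.13 in old mice), and the 6 adipocyte markers to 3.52 and 3.84 (2.10 to 3.21 and 1.93 to 2.58). Mouse 2, the other mouse with high proteasome genes, had median deviations of -0.35 in the T cell markers, -0.19 in the macrophage markers and -0.31 in the adipocyte markers, but of 0.47 in the B and plasma cell markers and 0.41 in the proliferation markers. In the islet markers its median deviation was -0.31. Old-OSKM mouse 3 was also low in islet markers, with a median deviation of -0.85, while that of its proteasome genes was -0.012. Leaving out both mice 1 and 4, the 36 genes had a median log2 difference of 0.044 for old-OSKM minus old mice, with 32 genes higher. The median over all genes was 0.013, and only old-OSKM mice 2 and 3 remain in this fit.

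The other genes of the pathway were taken from 6 lists, of which 40 genes were in the table. No gene of these passed an adjusted p under 0.05 in limma in any comparison. At a raw p under 0.05, none of the 40 differed with age. Between old-OSKM and old mice 3 of the 40 were higher (compared with 3.98% of all genes) and none lower, and between old-OSKM and young mice 2 (Psmb8 and Psme1) were higher (compared with 2.91% of all genes) and none lower. Without old-OSKM mouse 1, none was higher than in old mice (2.56% of all genes) and 1, Psmg1, was lower (1.88% of all genes), while 1 (Psmb8) was higher than in young mice (2.50% of all genes) and 1 (Psmg1) lower (1.66% of all genes).

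Of the 3 immunoproteasome catalytic subunits, which replace Psmb5, Psmb6 and Psmb7 in immune cells and under interferon, Psmb8 was 1 of the 3. Its log2 RPKM was -0.19, -0.53, -0.25 and 0.12 in the young mice, 0.47, -0.25, -0.43, -0.31 and 0.22 in the old mice and 1.84, 0.12, 0.31 and 0.75 in the old-OSKM mice. Old-OSKM mouse 1 was far above all others and mouse 4 second. The log2 difference from the old mice was 0.81 ± 0.32 (SE, adjusted p = 0.547 in limma). It was 0.45 ± 0.23 (SE) without mouse 1 and 0.82 ± 0.37 (SE) without mouse 4, and in neither fit below a raw p of 0.05. Psmb9 was at 1.34 in old-OSKM mouse 1 and between -0.83 and -0.38 in the other 12 mice, so that its difference from the old mice fell from 0.45 to -0.037 without that mouse. Psmb10 was different again, at 2.80 to 3.38 in all mice and thus above Psmb5, Psmb6 and Psmb7 in each of them. It lies 1865 bases from Ctrl, a chymotrypsin gene with a mean log2 RPKM of 9.91, and whether transcripts of Ctrl add to its level was not tested.

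**Figure D5:**
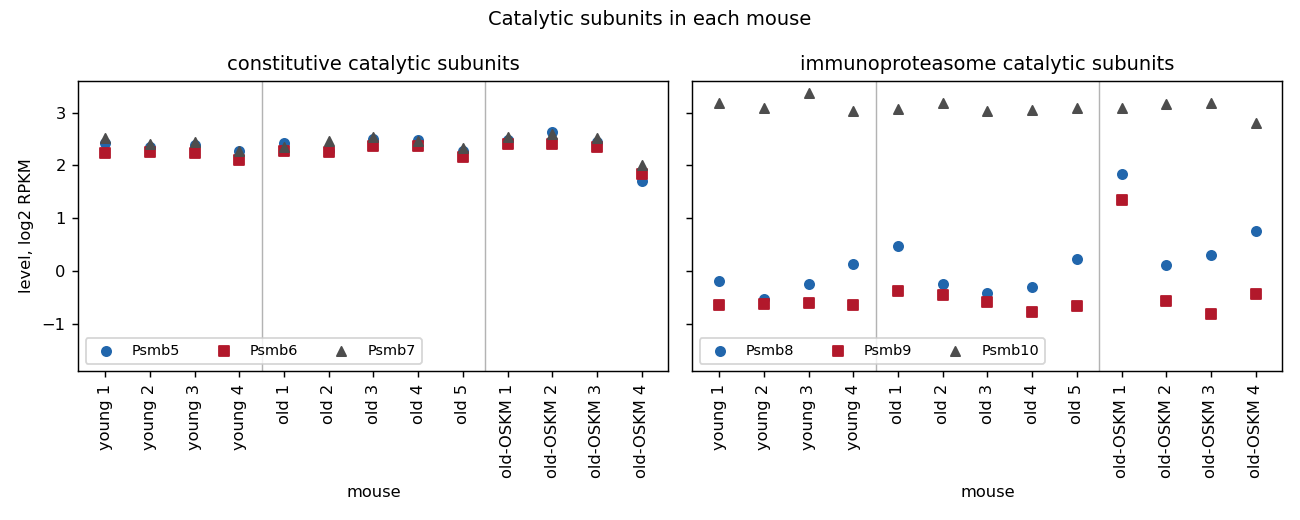
Level in log2 RPKM (vertical axis) of the catalytic subunits of the constitutive proteasome (left) and of the immunoproteasome (right) in each of the 13 mice (horizontal axis). Psmb5, Psmb6 and Psmb7 drop together in old-OSKM mouse 4, to between 1.71 and 2.01, while Psmb8 and Psmb9 peak in old-OSKM mouse 1, at 1.84 and 1.34, and Psmb10 stays near 3.

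The other genes below a raw p of 0.05 were Psme1 and Psme2, which form the PA28 activator that caps the core in place of the regulatory particle. Psme1 had a log2 RPKM of 1.25, 1.5, 1.31 and 1.69 in the young mice, 1.41, 1.45, 1.47, 1.35 and 1.56 in the old mice and 2.40, 1.42, 1.68 and 1.95 in the old-OSKM mice. Psme2 had 1.48, 1.41, 1.29 and 1.67, then 1.20, 1.13, 1.31, 1.36 and 1.55, and then 2.28, 1.34, 1.68 and 1.64. Old-OSKM mouse 1 was the highest in both, and the groups overlapped. On the log2 scale, old-OSKM minus old mice differed by 0.41 ± 0.16 (SE) in Psme1 and 0.42 ± 0.16 (SE) in Psme2, with an adjusted p of 0.547 in limma for each. Without mouse 1 they were 0.23 ± 0.12 and 0.24 ± 0.12 (SE), and neither was below a raw p of 0.05. Without mouse 4 the difference was 0.38 ± 0.19 (SE) in Psme1, not below it, and 0.45 ± 0.18 (SE) in Psme2, below it. The 5 activators and inhibitors had a median difference of 0.019 (-0.011 without mouse 1).

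The 5 chaperones of core assembly (Psmg1 to Psmg4 and Pomp) had a median log2 difference of 0.052 between old-OSKM and old mice, with 3 of 5 higher, and none below a raw p of 0.05. Without mouse 1 the median was -0.024. The 6 other subunits and partners of the 26S particle, such as the ubiquitin receptor Adrm1 and the deubiquitinase Usp14, had a median of -0.028, or 0.036 without mouse 4. In mouse 4 their median deviation was -0.29. The 14 genes of ubiquitin and substrate delivery, such as Uba1, which activates ubiquitin, and the unfolding ATPase Vcp, had a median of -0.073. In mouse 4, 10 of the 14 were at their lowest of 13 mice, compared with 36.2% of all genes with a mean log2 RPKM over 0. The median deviation of the 14 genes in this mouse was -0.27. Without mouse 4 the median difference was 0.0073, with 9 of the 14 higher.

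Of the 7 genes that control proteasome transcription, 6 were above their own mean in mouse 4, Ngly1 being the exception. Their median deviation in that mouse was 0.37, compared with -0.073 over all genes with a mean log2 RPKM over 0. In that mouse 4 of the 7 genes were at their highest. The share of all genes at their highest in it was not taken, so that this count is a description only. Nfe2l1 had a log2 RPKM of 3.06 in old-OSKM mouse 4 and 2.48 to 2.76 in the other 12 mice, without overlap between this mouse and the rest. Between the groups the 7 genes had a median log2 difference of 0.099 in old minus young and -0.022 in old-OSKM minus old mice (-0.14 without mouse 4), and none was below a raw p of 0.05 in any comparison with all mice.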

How the data were processed

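RNA sequencing of rRNA-depleted pancreas RNA was analysed in 4 young, 5 old and 4 old-OSKM mice. The authors aligned reads with STAR 2.3.0e to mm10, excluded reads that mapped to many places but not those that mapped to only a few, estimated RPKM per isoform with Casper, summed them per Entrez gene, and deposited log2 RPKM after quantile normalization, so that sorted values differ by at most 0.0116 between mice. The methods give a single read number for all samples. The read totals of each mouse and the counts behind the values are unknown, and a change of overall level in a mouse is not kept by this normalization. A separate correction for read totals, described in the methods, is not visible in the values. The values were used as deposited, without pseudocount or filter, for all 23366 genes, of which 23273 had a symbol.

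The test was limma (version 3.58.1, under R 4.3.3, with default lmFit and eBayes, all 13 mice in 1 fit, 2-sided contrasts, Benjamini-Hochberg adjustment over all genes). No label pairs mice across groups. P-values measure the spread between mice, each with 1 library. Deviations are from the gene's mean over the 13 mice. Summed marker levels are log2 of summed RPKM.

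Genes given in every mouse, as values or ranges, were those with a raw p under 0.05 in any comparison, Psmb5, Psmb6, Psmb7, Psmd14, Psma8, Psmb11, the highest and lowest of the core, ATPase and Psmd genes, and, from the pathway lists, those with a raw p under 0.05 and Psmb8, Psmb9 and Psmb10. The members, lists and rules were chosen with earlier results of these data known, so that none of them is independent evidence. The listed markers Igkc and Trac were not used here, and Shfm1, AI314180 and Ufd1l are older names of listed genes. Promoters were RefSeq's (GRCm38.p6). Reads of the Psma5, Psmb5, Psmb6 and Psmb7 genes may be shared with pseudogenes of the same name, and 9 of the 36 genes overlap another annotated gene. Alternatives were a repeated quantile normalization, centring, a filter on low values, pseudocounts of 1 and 0.1, only the groups compared, eBayes with a trend and robust variances, 2 covariates (the series of identifiers in the labels and a global signature given by the mean z-score over all genes), and each mouse left out. Python 3.11.15 with matplotlib 3.10.9 drew the figures. The fit was tested on simulated data.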

Additional observations from a re-analysis of the deposited data

Results flagged for a closer look

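Within each group, the highest or lowest mouse was compared with the nearest of the others, and 9 of 135 groups of values had a gap larger than Dixon's 95% limit. By chance this limit is passed in about 5% of groups. In the old-OSKM mice, 4 genes stood out, all with mouse 4 lowest: Psmd8, where the gap was 0.963 of the range, Psmd5 (0.956), Psmb6 (0.888) and Psmb7 (0.845). Among the young mice, Psmb6 was low in mouse 4 (0.92 of the range), Psmd7 low in mouse 2 (0.85) and Psmd13 high in mouse 3 (0.876). Among the old mice, Psma8 was high in mouse 4 (0.944) and Psmd1 low in mouse 2 (0.726). The median deviation of the 36 genes was not past the limit in any group.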

How the results depend on the processing

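No proteasome gene passed an adjusted p under 0.05 in limma or the study's rule in any comparison under any alternative run, including each mouse left out. The median difference of the 36 genes moved by less than its spread between mice (pooled SD 0.12) under every alternative. That spread is widened by old-OSKM mouse 4, so that it is a poor measure of what leaving out this mouse changes. The SD of the mouse medians was 0.050 in young, 0.054 in old and 0.21 in old-OSKM mice, or 0.084 without mouse 4. The median difference did not keep its sign in either comparison with the old-OSKM mice. It was negative in old minus young mice under each alternative but 1. Leaving out 1 mouse, it ran from -0.054 to -0.028 in old minus young mice, from -0.071 to 0.087 in old-OSKM minus old mice and from -0.11 to 0.060 in old-OSKM minus young mice, and the positive values came from leaving out old-OSKM mouse 4 only. Under the other alternatives the medians ran from -0.052 to -0.028, from -0.028 to 0.047 and from -0.065 to 0.016, leaving aside the centring of each mouse on the median of the 36 genes, which brings the median close to 0 by construction (0.0025, -0.0025 and -0.0068). The positive values came from the global signature as a covariate, from leaving out both old-OSKM mice 1 and 4 and, for old-OSKM minus old mice, from centring on genes with a mean over 0 (0.021). The cause of these changes was not tested.

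Counts at a raw p under 0.05 were unstable. For genes lower in old mice, the count of 1 was 0 with only genes with a mean over 0 (204 of 8410 genes passed). It was 0 with the run of identifiers as a covariate (589 of all 23366 genes). With only the 2 groups in the fit it was 3 (823 of all genes). When 1 mouse was left out it was 0 to 2 (477 to 808 of all genes), not always Psmd4. Of genes higher in old-OSKM than in old mice, 1 passed with centring on genes with a mean over 0 (1109 of all genes). With the global signature as a covariate 1 passed (515 of all genes), and 0 to 3 when 1 mouse was left out (598 to 1281). Against the young mice, 0 to 1 were lower when 1 mouse was left out (387 to 2038 of all genes). Likewise, 0 to 1 were higher (511 to 1001 of all genes). After the data were seen, 2 more alternatives were added. Without old-OSKM mice 1 and 4, 2 genes passed as lower in old minus young mice (857 of all genes). In the same fit, 2 were higher in old-OSKM than in old mice (529 of all genes). There, 1 was higher in old-OSKM than in young mice (735 of all genes). Centred on the median of the 36 genes in each mouse, 0 were lower in old mice (305 of all genes). With this centring, 1 was lower in old-OSKM than in young mice (276 of all genes). The fits of named genes moved beyond the spread between mice, old-OSKM mouse 4 included, in 7 of 855 cases. No paired analysis was possible because the labels give no replicate numbers shared between groups. The depth of each mouse and the counts are unknown, so that counting error cannot be told from differences between mice, which matters most for Psma8 and Psmd9.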
